A study of Mus musculus with 48 samples.

Results

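Afp, H19, Igf2, Gpc3, Dlk1, Sox4, Sox9, Krt19, Epcam and Spp1 are genes of the fetal liver and of liver progenitor cells, and their RNA was followed in the adult liver of 24 mice. The set was chosen by an earlier reading of these data, in which the fold changes of Afp and Sox4 in Control and in Rapa 14 ppm mice relative to WT-Control mice brought these genes up. Those 2 comparisons therefore carry no test here. In the table of 45141 Affymetrix probe sets, 19 probe sets were annotated to exactly 1 of the 10 genes and covered 7 of them, of 17097 genes read in all. H19 and Gpc3 were read from a second table of 17306 probe sets defined per gene, and Spp1 was not analysed here.

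Total RNA came from whole liver at 11 weeks of age, with 1 array per mouse. Ercc1Δ/− mice carry 1 null and 1 truncated allele of Ercc1, a DNA repair nuclease subunit, in all of their cells, and they age early. They received ad libitum control diet with 14 ppm encapsulated rapamycin (Rapa 14 ppm, n = 4), 30% less food (DR 30%, n = 5) or the control diet ad libitum (Control, n = 5). Wild-type mice received 30% less food (WT-DR, n = 5) or ad libitum food (WT-Control, n = 5). All 24 mice were F1 hybrids of C57BL6J and FVB. Restriction began at 7 weeks and was complete from 9 weeks onward, whereas the age at which rapamycin began is not given for these mice. The labels mark the arrays of the other 4 groups, but not those of rapamycin, with 1 more round of analysis, so that this mark and rapamycin cannot be told apart.

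The fetal liver makes large amounts of Afp, which encodes alpha-fetoprotein, the main protein of fetal plasma and the neighbour of the albumin gene Alb. Around birth hepatocytes silence Afp, H19 and Gpc3, in mice partly through the repressor Zhx2, and injured or regenerating adult liver can express them again. H19 is an imprinted noncoding RNA next to Igf2, the fetal growth factor, and Dlk1 and Meg3 form another imprinted pair. Sox4, Sox9, Krt19, Epcam and Spp1 mark bile duct cells and the progenitor cells of a ductular reaction.

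On the mouse assembly GRCm38.p6, Afp lies on chromosome 5 (90490714 to 90508907), downstream of Alb (90460870 to 90476602). H19 (142575530 to 142578146) and Igf2 (142650768 to 142666816) share chromosome 7, and Ercc1 lies far off on the same chromosome (19344067 to 19356524). Sox4 lies on chromosome 13 (28948919 to 28953699) and Gpc3 on chromosome X (52272426 to 52613974). RefSeq promoter sequences matched 7 of the 10 genes. The 250 bases before the start are shown for Afp and Sox4, the members that differed between the genotypes in the probe set table. Capitals mark 3 short motifs searched on both strands: the half-site of HNF1 (GTTAAT), an activator of fetal and adult liver genes, the TATA box (TATAAA) and the CCAAT box (CCAAT).
Afp, chr5:90490464-90490713, plus strand: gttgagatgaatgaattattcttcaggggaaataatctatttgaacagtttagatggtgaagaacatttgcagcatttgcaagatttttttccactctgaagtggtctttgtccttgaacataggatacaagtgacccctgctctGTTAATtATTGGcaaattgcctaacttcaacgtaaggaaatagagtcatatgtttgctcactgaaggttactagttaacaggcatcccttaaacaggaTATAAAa
Sox4, chr13:28953700-28953949, minus strand: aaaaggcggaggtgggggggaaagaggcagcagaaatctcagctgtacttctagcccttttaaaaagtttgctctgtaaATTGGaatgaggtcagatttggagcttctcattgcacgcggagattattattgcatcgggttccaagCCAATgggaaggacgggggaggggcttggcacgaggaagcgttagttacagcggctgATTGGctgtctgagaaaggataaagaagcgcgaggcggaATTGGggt
The Afp window held 1 HNF1 half-site, 105 bases before the start, 1 CCAAT box read on the other strand and 1 TATA box. The Sox4 window held 4 CCAAT boxes and neither of the other motifs. Of 32851 promoter windows of this length, 6.43% held the half-site, 12.4% the TATA box and 33.8% the CCAAT box. The motifs did not overlap, and a match is a description of the letters only.

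Values are log2 expression after the authors' normalization, so a difference of 1 is a doubling. Arrays were alike in scale, with medians of 4.16 to 4.21, and 2 arrays of a group correlated at 0.991 to 0.996 across probe sets. Ercc1, which checks the labels, was at 5.12 ± 0.12 in Rapa 14 ppm, 4.96 ± 0.21 in DR 30% and 5.37 ± 0.10 in Control mice, against 6.29 ± 0.18 in WT-DR and 6.68 ± 0.11 in WT-Control mice (mean ± SD). Liver identity was plain in all groups, with Alb at 14.2 to 14.4 and the thyroxine carrier Ttr at 13.9 to 14.1 in every mouse. Groups were compared with limma over all probe sets, and a differentially expressed gene (DEG) had an FDR below 0.05 and differed by 1.5-fold or more. In whole liver, fewer cells of a type and less RNA per cell cannot be told apart.

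The comparison of DR 30% with WT-DR mice asked whether the genotype showed in these genes under restriction. These mice were in neither of the 2 comparisons that brought the genes up. Their arrays did count in the choice of the brightest probe set, and the genes were chosen with earlier results of these data known. Afp was 14.3-fold higher and Sox4 1.84-fold higher in DR 30% than in WT-DR mice, and per gene H19 was 1.99-fold higher. Thus 2 of the 7 members in the probe set table were DEGs that were higher and 0 were DEGs that were lower, where 4.22% of all 17097 genes were higher and 1.22% lower. The members' median log2 fold change was 0.07, against −0.00 over all genes. The other 5 members in this table were not DEGs.

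Afp, read from the probe set with the highest mean, was at 7.48, 7.65, 7.86, 8.76 and 7.72 in DR 30% mice. In WT-DR mice it was at 4.22, 4.21, 4.13, 3.78 and 3.92. The groups lay far apart, with DR 30% mouse 368 highest. The log2 fold change was 3.84 (SE 0.20, adjusted p = 1.64e-11). Rapa 14 ppm mice held Afp at 8.58, 7.15, 7.76 and 7.87 and Control mice at 8.58, 8.48, 8.23, 8.52 and 8.48, while WT-Control mice had 4.11, 4.13, 4.15, 4.26 and 4.37. Every one of the 14 mutant mice was thus far above every one of the 10 wild-type mice, and the wild-type values lay near 4.19, the median of the means of all probe sets. As a description, Afp was 12.5-fold higher in Rapa 14 ppm and 19.1-fold higher in Control than in WT-Control mice. The order of group means was Control, DR 30%, Rapa 14 ppm, WT-Control and WT-DR, and neighbours in this order overlapped, except Rapa 14 ppm and WT-Control mice.

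**Figure D1:**
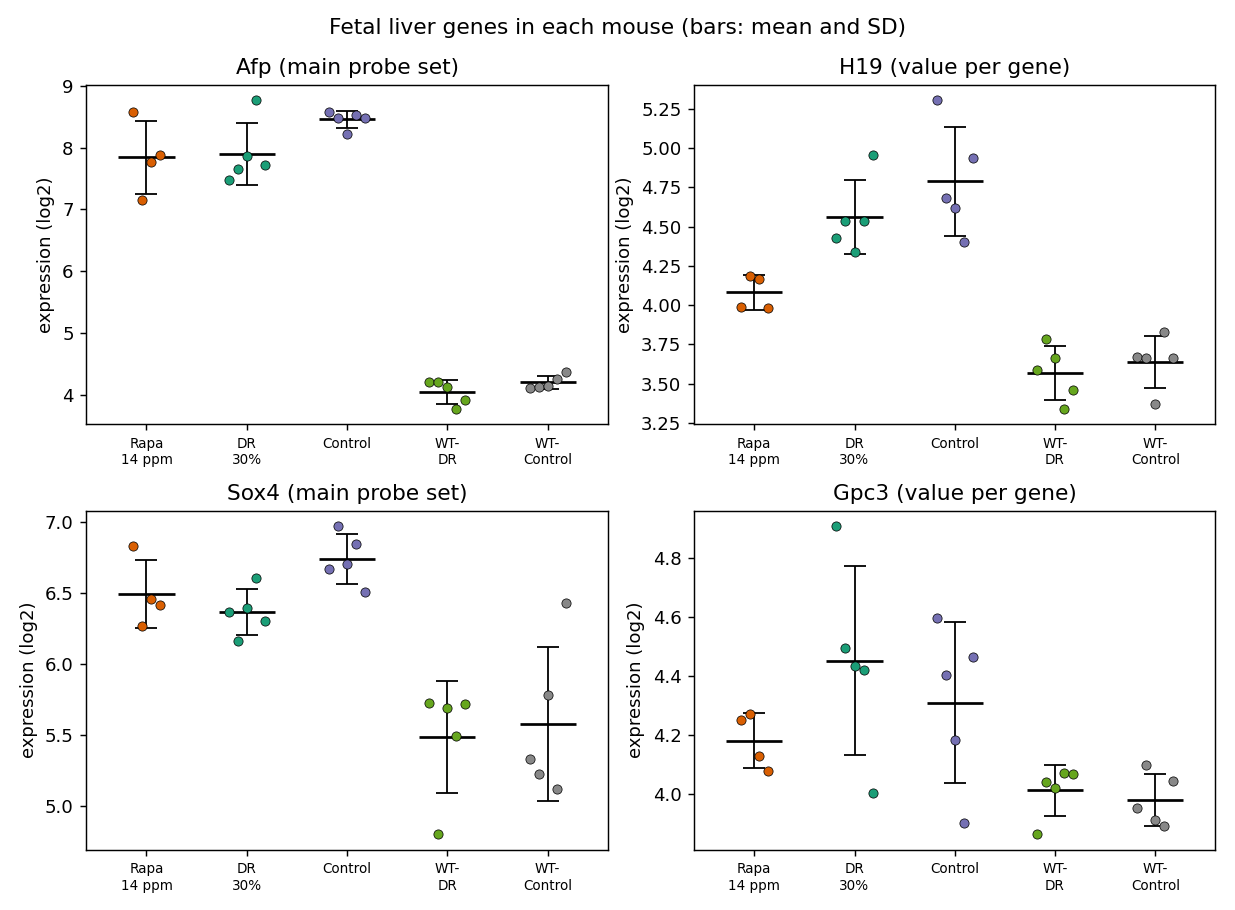
Log2 expression of Afp, Sox4 (main probe set), H19 and Gpc3 (values per gene) in each mouse of the 5 groups, with the mean as a line and the SD as a bar. Afp lies above 7 in all Ercc1Δ/− mice and below 4.4 in all wild-type mice, whereas 1 WT-Control mouse reaches the mutant range for Sox4 and Gpc3 groups overlap.

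Within the mutants, Afp was lower in the treated groups by an amount that did not pass the threshold. Against Control, the log2 fold change was −0.56 in DR 30% (95% interval −0.98 to −0.14, adjusted p = 0.090) and −0.62 in Rapa 14 ppm mice (−1.06 to −0.17, adjusted p = 0.321). In each comparison, 1 treated mouse overlapped the Control range or lay above it, DR 30% mouse 368 at 8.76 and Rapa 14 ppm mouse 535 at 8.58. Without mouse 368 the fall in DR 30% became a DEG (−0.78, adjusted p = 0.00541). Rapa 14 ppm and DR 30% mice differed by −0.05 (−0.50 to 0.39, adjusted p = 0.946), and WT-DR and WT-Control mice by −0.15 (−0.57 to 0.27, adjusted p = 0.674). The interaction of restriction and genotype, the effect of restriction in mutants less that in wild types, was −0.41 (−1.01 to 0.18, adjusted p = 0.568).

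Of 5 probe sets for Afp, 3 carried the difference between DR 30% and WT-DR mice. The second and the third by mean gave log2 fold changes of 2.35 (adjusted p = 2.54e-08) and 2.94 (adjusted p = 1.71e-09). The fourth gave 0.29 (adjusted p = 0.099) and the fifth −0.12 (adjusted p = 0.333), and both were dim, at 2.78 to 3.76 in every mouse. The value per gene gave 3.31 (adjusted p = 1.49e-10). As folds these were 14.3 on the brightest probe set, 5.11 on the second and 9.93 per gene. In wild-type mice the second probe set was brighter than the first, at means of 4.49 against 4.05 in WT-DR and 4.56 against 4.20 in WT-Control. The first thus ranked highest through the mutant mice, those of DR 30% among them. The size of the Afp change thus depended on the probe set, and its direction was shared by the 4 brightest.

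H19 was at 4.43, 4.54, 4.34, 4.54 and 4.95 in DR 30% mice, against 3.59, 3.78, 3.67, 3.34 and 3.46 in WT-DR mice. The groups did not overlap, and the log2 fold change was 0.99 (SE 0.13, adjusted p = 1.59e-05), where 3.25% of the per-gene probe sets were DEGs that were higher. H19 was at 3.99, 4.18, 4.17 and 3.98 in Rapa 14 ppm mice and at 5.30, 4.68, 4.62, 4.40 and 4.94 in Control mice, with WT-Control mice at 3.67, 3.66, 3.37, 3.83 and 3.66. The 4 rapamycin mice lay between the untreated mutants and the wild types and overlapped neither. As a description, H19 was 1.36-fold higher in Rapa 14 ppm, and so not a DEG, and 2.22-fold higher in Control than in WT-Control mice. All of these levels except that of Control mouse 321 lay below 5.06, the median of the means in that table.

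H19 was the one gene of the set that was called under rapamycin. It was lower in Rapa 14 ppm than in Control mice (log2 fold change −0.71, SE 0.14, adjusted p = 0.0384), as 1 of only 8 lower DEGs, or 0.0462% of that table. This call did not hold with the 2 groups alone in the model (adjusted p = 0.222). It was also lost when any of 9 mice was left out, with adjusted p of 0.0506 to 0.141. These were Control mice 321, 323 and 325, all 4 Rapa 14 ppm mice, DR 30% mouse 365 and WT-Control mouse 401. Relative to DR 30% mice, H19 was also lower in Rapa 14 ppm mice, by less than 1.5-fold (−0.48, SE 0.14, adjusted p = 0.0383), and the groups did not overlap. Restriction gave −0.23 in DR 30% against Control (−0.51 to 0.05, adjusted p = 0.294) and −0.07 in WT-DR against WT-Control mice (−0.35 to 0.20, adjusted p = 0.765). The mean level of 4 neutrophil markers ran from 4.11 to 4.30 in Rapa 14 ppm, against 4.43 to 4.82 in Control mice, with 0 of 4 being DEGs. The gap lay mostly in S100a8 (group means 4.23 against 4.91) and S100a9 (5.62 against 6.29). Ngp was dim, at 3.36 against 3.50, and Camp did not fall, at 3.61 against 3.59. The part of neutrophils in the H19 difference was not tested.

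Sox4, a transcription factor of progenitor cells, was at 6.37, 6.16, 6.39, 6.60 and 6.30 in DR 30% mice on its brightest probe set. WT-DR mice had 5.73, 4.80, 5.69, 5.49 and 5.71, so that the groups did not overlap. The log2 fold change was 0.88 (SE 0.20, adjusted p = 0.00397). In Rapa 14 ppm mice the values were 6.83, 6.26, 6.45 and 6.42 and in Control mice 6.67, 6.97, 6.70, 6.85 and 6.50, against 5.33, 5.23, 5.78, 5.12 and 6.43 in WT-Control mice. WT-Control mouse 405 stood alone at 6.43, within the ranges of Rapa 14 ppm and DR 30% mice. As a description, Sox4 was 1.88-fold higher in Rapa 14 ppm and 2.23-fold higher in Control than in WT-Control mice.

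The other features of Sox4 did not show this difference. Its 4 other probe sets gave log2 fold changes between DR 30% and WT-DR mice of −0.02 to 0.10, none a DEG, and no mouse exceeded 4.55 on them. The value per gene gave 0.03 (−0.08 to 0.13, adjusted p = 0.759), with 3.64 to 3.71 in DR 30% mice and 3.55 to 3.73 in WT-DR mice. The value per gene was dim, at 3.55 to 3.89 over all mice, against a median of the means in that table of 5.06. At such low signal its narrow interval cannot decide whether Sox4 RNA differed as on the brightest probe set. Which feature reads Sox4 RNA was not tested. Neither treatment moved the brightest probe set past the threshold, with −0.37 in DR 30% against Control (−0.78 to 0.04, adjusted p = 0.283) and −0.25 in Rapa 14 ppm against Control (−0.68 to 0.19, adjusted p = 0.763).

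**Figure D2:**
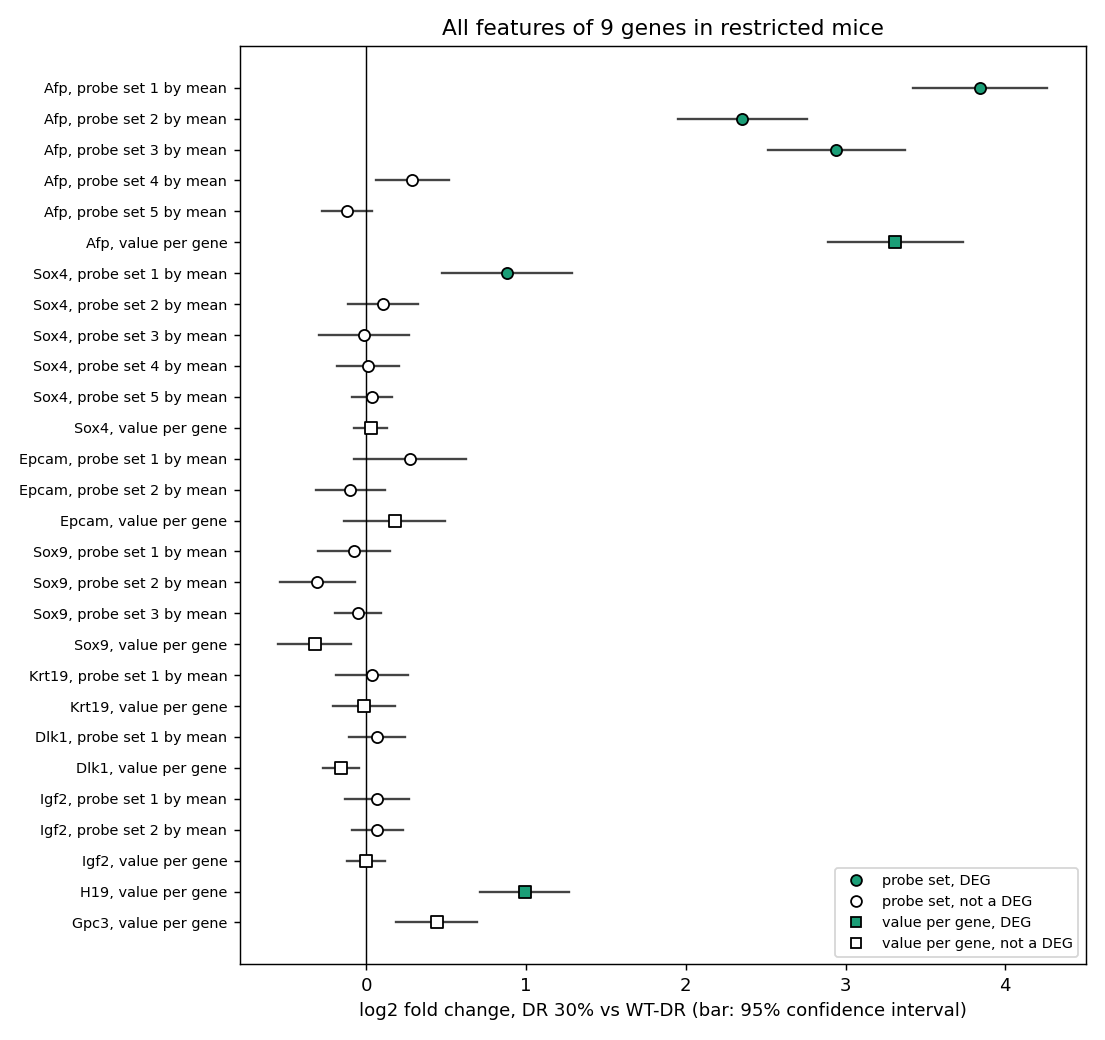
Log2 fold change of DR 30% over WT-DR mice for all 19 probe sets (circles) and the 9 values per gene (squares), with 95% confidence intervals, filled where the feature was a DEG. 3 of 5 Afp probe sets are filled, while Sox4 is filled for its brightest probe set alone and its value per gene lies at 0.03.

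Gpc3, a heparan sulfate proteoglycan of the fetal liver cell surface, was at 4.91, 4.50, 4.43, 4.42 and 4.00 in DR 30% mice. WT-DR mice had 3.86, 4.04, 4.02, 4.07 and 4.07. The log2 fold change of 0.44 (SE 0.12, adjusted p = 0.0137) passed the FDR and stayed under 1.5-fold, and DR 30% mouse 369 lay inside the WT-DR range. Rapa 14 ppm mice had 4.25, 4.27, 4.13 and 4.08, Control mice 4.60, 4.40, 4.18, 3.90 and 4.46, and WT-Control mice 3.95, 4.10, 3.91, 3.89 and 4.04. The mutants on ad libitum food overlapped the wild types.

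Igf2 and Dlk1 stayed at low values in all 5 groups. Igf2 ran from 3.29 to 3.94 over the 24 mice on its brighter probe set and Dlk1 from 3.48 to 4.04, both below the median of 4.19 in every mouse. DR 30% and WT-DR mice differed by 0.07 for Igf2 (−0.13 to 0.27, adjusted p = 0.733) and by 0.07 for Dlk1 (−0.11 to 0.24, adjusted p = 0.687). The value per gene of Dlk1 had the opposite sign, at −0.16 (−0.27 to −0.05, adjusted p = 0.0446), which passed the FDR and stayed under 1.5-fold. Changes smaller than these intervals were not detectable.

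Krt19, Epcam and Sox9, the other duct and progenitor markers read, were not DEGs either. Krt19, a keratin of bile ducts, ran from 3.58 to 4.24 and differed by 0.03 between DR 30% and WT-DR mice (−0.19 to 0.26, adjusted p = 0.891). Epcam, an adhesion molecule of duct cells, ran from 3.96 to 5.08, with all group means above the median of 4.19, and differed by 0.27 (−0.08 to 0.62, adjusted p = 0.340). Its second probe set gave −0.10 (−0.32 to 0.12, adjusted p = 0.612). Sox9, a transcription factor of duct and progenitor cells, differed by −0.08 on its brightest probe set (−0.30 to 0.15, adjusted p = 0.713) and by −0.32 per gene (−0.55 to −0.09, adjusted p = 0.0425), under 1.5-fold.

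Sox9 had its lowest values in rapamycin mice, at 3.52, 3.63, 3.83 and 3.93 in Rapa 14 ppm, against 4.55, 4.41, 4.19, 4.21 and 3.89 in Control mice. The log2 fold change was −0.52 (SE 0.12, adjusted p = 0.0829), so Sox9 was not a DEG. Without Control mouse 327, which lay inside the rapamycin range, it was (−0.61, adjusted p = 0.0114). In DR 30% mice Sox9 was at 4.02, 4.00, 3.82, 4.08 and 3.84, and the difference from Control was −0.30 (−0.52 to −0.07, adjusted p = 0.0956). Per gene, the log2 fold change against Control was −0.37 in DR 30% (adjusted p = 0.0266), which passed the FDR and stayed under 1.5-fold. In Rapa 14 ppm it was −0.44 per gene (adjusted p = 0.129). Sox9 thus lay lower than in Control in both treated groups without being a DEG in either. Its brightest probe set was dim, with a mean of 4.00 over the 24 mice, below the median of 4.19.

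The treatments gave no DEG among the 7 members in any of the 5 tested comparisons other than DR 30% with WT-DR. Without adjustment, limma's p was under 0.05 for 2 members in DR 30% vs Control, 2 in Rapa 14 ppm vs Control, 1 in the interaction and 0 in both other comparisons. The share of all genes with such a p is not given here, so these counts have no background and are not read further. Over all genes, DEGs were 1.85% higher and 1.22% lower in DR 30% vs Control, and 2.85% higher and 3.52% lower in WT-DR vs WT-Control. In Rapa 14 ppm vs Control they were 0.0468% higher and 0.00585% lower, and in Rapa 14 ppm vs DR 30% 0.842% higher and 1.27% lower. The interaction gave 0.737% higher and 0.228% lower. All of these comparisons share mice with those that chose the genes.

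In those 2 comparisons, Afp and Sox4 were the DEGs among the 7 members of the probe set table, as the choice of the genes requires. Per gene, H19 was also a DEG in Control vs WT-Control and not in Rapa 14 ppm vs WT-Control, and Sox4 was a DEG in neither. All genes gave 2.49% higher and 1.11% lower in Control vs WT-Control, and 3.01% higher and 1.61% lower in Rapa 14 ppm vs WT-Control. Of the values per gene, 2.22% were higher in Control vs WT-Control and 2.76% in Rapa 14 ppm vs WT-Control. Nothing is read from these counts.

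None of the 3 repressors of Afp was a DEG between DR 30% and WT-DR mice. Zhx2, a repressor of Afp, H19 and Gpc3 in mouse liver, was at 4.65, 4.57, 4.67, 5.14 and 4.63 in DR 30% and at 5.07, 4.55, 4.79, 4.61 and 4.96 in WT-DR mice, a log2 fold change of −0.06 (−0.31 to 0.18, adjusted p = 0.799). WT-DR mice lay below WT-Control mice, which had 5.41, 5.16, 5.34, 5.48 and 5.62 (−0.61, SE 0.12, adjusted p = 8.02e-04). Rapa 14 ppm mice had 4.69, 4.68, 4.72 and 5.09 and Control mice 5.07, 5.09, 5.25, 5.01 and 4.80. As a description, their log2 fold changes against WT-Control were −0.60 in Rapa 14 ppm and −0.36 in Control mice. Zhx2 was thus highest in WT-Control mice, and its part in the levels of Afp was not tested.

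Zbtb20, a second postnatal repressor of Afp in mice, was lowest in DR 30% mice, at 8.53, 8.30, 8.02, 8.58 and 8.53. It was at 9.05, 8.97, 8.83, 8.66 and 8.73 in WT-DR and at 8.63, 8.87, 9.07, 8.82 and 9.00 in Control mice, and DR 30% overlapped neither. The log2 fold change was −0.46 against WT-DR (SE 0.11, adjusted p = 0.00921) and −0.49 against Control (SE 0.11, adjusted p = 0.00812), both under 1.5-fold. WT-Control mice had the highest mean, at 8.89 to 9.46. The log2 fold change of WT-DR against WT-Control was −0.31 (adjusted p = 0.0562). On the other probe sets it was −0.35 (adjusted p = 0.0165), −0.37 (adjusted p = 0.0161) and −0.20 (adjusted p = 0.255). The interaction on the brightest probe set was −0.17 (SE 0.16, adjusted p = 0.701). Rapa 14 ppm mice, at 9.01, 8.94, 9.17 and 9.05, were higher than DR 30% mice (0.65, SE 0.12, adjusted p = 0.00283), a DEG on 3 of the 4 probe sets of the gene.

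Zfhx3, known as a repressor of human AFP, was at 7.37, 7.34, 7.31, 7.65 and 7.39 in DR 30% and at 7.52, 7.22, 7.34, 7.46 and 7.33 in WT-DR mice, with a difference of 0.04 (−0.13 to 0.21, adjusted p = 0.818). WT-Control mice were highest, at 8.03, 7.81, 7.78, 7.86 and 8.14. WT-DR mice were lower by less than 1.5-fold (−0.55, SE 0.08, adjusted p = 5.19e-05) on the brightest probe set, and 3 of its 5 other probe sets were lower DEGs. The interaction on the brightest probe set was 0.48 (SE 0.12, adjusted p = 0.049), under 1.5-fold. On the 5 other probe sets it was 0.07 to 0.66 and did not pass the FDR (adjusted p of 0.134 to 0.869).

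**Figure D3:**
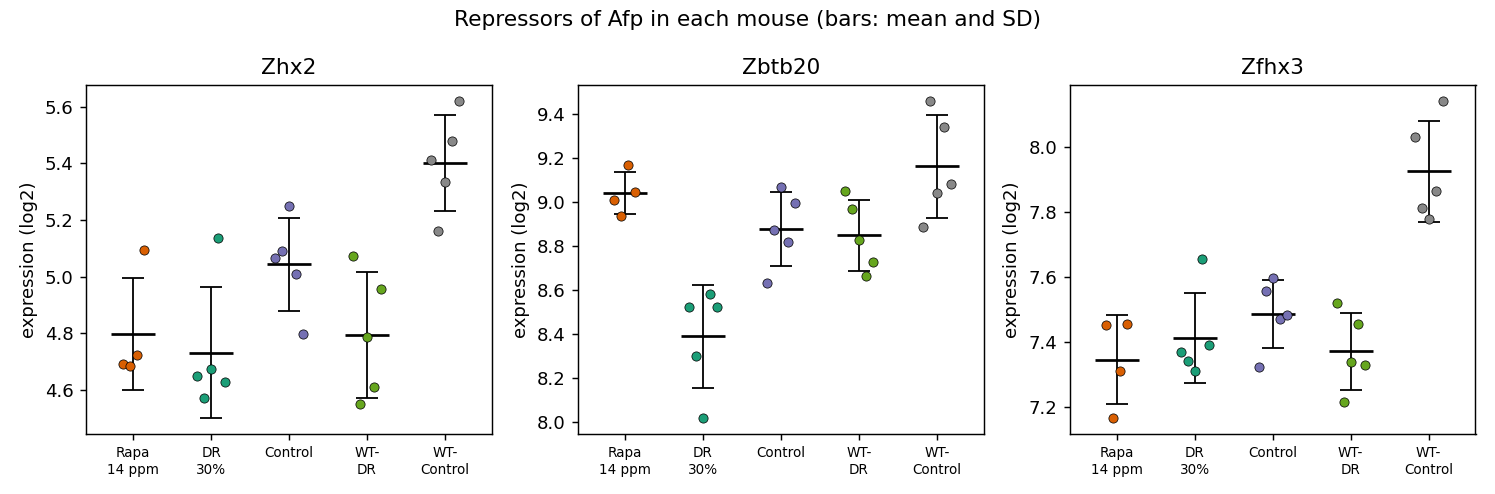
Log2 expression of Zhx2, Zbtb20 and Zfhx3, repressors of Afp, in each mouse of the 5 groups, with the mean as a line and the SD as a bar. Zbtb20 is lowest in DR 30% mice, at 8.02 to 8.58. Zhx2, Zbtb20 and Zfhx3 each have their highest mean in WT-Control mice.

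Of 10 measured regulators of Afp, 0 were higher and 1 was lower in DR 30% than in WT-DR mice. Over all genes, 4.22% were higher and 1.22% lower. The lower one was Foxa2, a pioneer factor of liver genes, at 8.86 ± 0.24 in DR 30% and 9.45 ± 0.28 in WT-DR mice (SD, n = 5 each; log2 fold change −0.59, adjusted p = 0.021). WT-DR had the highest mean of all groups, and DR 30% lay near WT-Control mice, at 8.83 ± 0.36. Foxa2 was at 9.28 ± 0.33 in Control and 9.04 ± 0.09 in Rapa 14 ppm mice, so ad libitum mutants did not have less of it. Foxa1, its close relative, was lower in DR 30% than in Control mice (−0.88, SE 0.23, adjusted p = 0.0170) and lower in WT-DR than in WT-Control mice (−0.78, SE 0.23, adjusted p = 0.0181). The list's median log2 fold change in DR 30% vs WT-DR was −0.01, against −0.00 over all genes.

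Among 17 measured hepatoblast and progenitor genes outside the 10, 7 were higher and 0 lower in DR 30% than in WT-DR mice. Their median log2 fold change was 0.52. Over all genes, 4.22% were higher and 1.22% lower, with a median of −0.00. Krt23, a keratin raised in stressed liver, was at 6.39 ± 0.72 in DR 30% and 4.22 ± 0.05 in WT-DR mice (SD, n = 5 each; 2.17, SE 0.23, adjusted p = 1.15e-06). The adhesion receptor Cd44 was higher by 0.97 (adjusted p = 0.0011), the surface glycoprotein Cd24a by 0.88 (adjusted p = 2.80e-04) and Krt18, a keratin of hepatocytes as well as ducts, by 0.60 (adjusted p = 7.6e-05). With 1 of the 10 mice of both groups left out, 4 to 8 genes of the list were higher DEGs, 4 of them without WT-DR mouse 424. Restriction in wild types lowered Krt23 (−1.23, SE 0.23, adjusted p = 5.38e-04), and its interaction was 1.42 (SE 0.33, adjusted p = 0.0372).

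Prom1, a surface marker of progenitor cells, and Bex1 were raised by restriction in the mutants. Prom1 was at 5.48 ± 0.66 in DR 30% and 4.22 ± 0.12 in Control mice (SD, n = 5 each; 1.26, SE 0.22, adjusted p = 6.18e-04). Bex1 was at 4.51 ± 0.66 in DR 30% and 3.62 ± 0.27 in Control mice (0.88, SE 0.20, adjusted p = 0.00516). These were the 2 of 17 that were DEGs in DR 30% vs Control, where 1.85% of all genes were higher and 1.22% lower. Both were also lower in Rapa 14 ppm than in DR 30% mice (Prom1 −1.03, adjusted p = 0.00909, and Bex1 −0.96, adjusted p = 0.00789).

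Of 8 other imprinted growth genes, 2 were higher and 0 lower in DR 30% than in WT-DR mice, with a median of 0.38. Over all genes, 4.22% were higher and 1.22% lower, with a median of −0.00. Plagl1, a regulator of the imprinted network, was higher by 0.91 (SE 0.18, adjusted p = 0.00128). Meg3, the noncoding RNA of the Dlk1 locus, ran from 5.18 to 7.81 in DR 30% and from 4.91 to 5.21 in WT-DR mice (1.18, SE 0.32, adjusted p = 0.0158), so that the lowest DR 30% mouse lay inside the WT-DR range. Restriction lowered Meg3 in the mutants, with 6.27 ± 0.97 in DR 30% and 7.65 ± 0.45 in Control mice (SD, n = 5 each; −1.38, SE 0.32, adjusted p = 0.00752), and Rapa 14 ppm mice were at 7.67 ± 0.64 (n = 4). Meg3 was higher in Rapa 14 ppm than in DR 30% mice by 1.40 (SE 0.34, adjusted p = 0.0164). Cdkn1c, an inhibitor of the cell cycle, was raised by restriction in both genotypes, by 1.24 in DR 30% against Control (adjusted p = 2.03e-05) and by 1.11 in WT-DR against WT-Control (adjusted p = 2.06e-05).

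**Figure D4:**
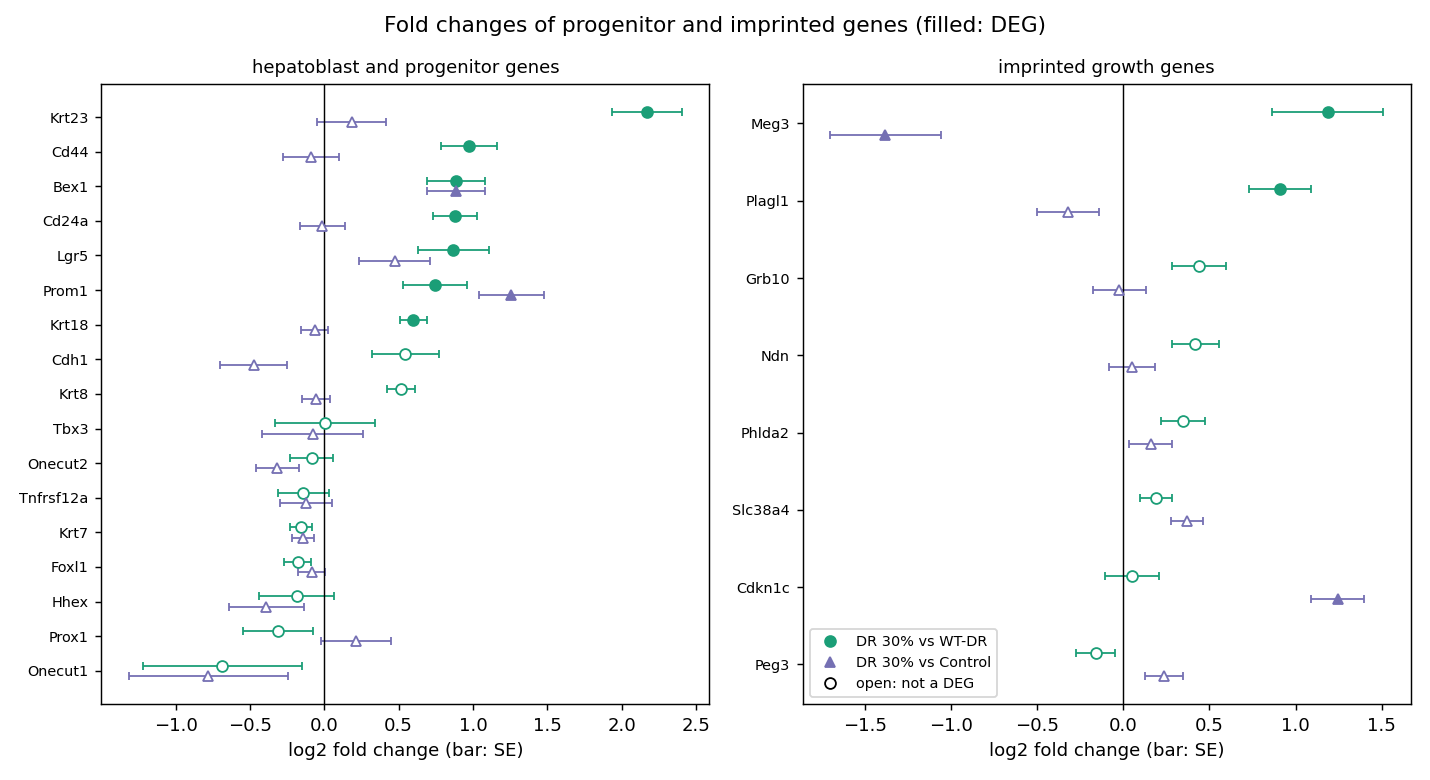
Log2 fold changes with SE of 17 hepatoblast and progenitor genes and 8 imprinted growth genes, for DR 30% over WT-DR (circles) and DR 30% over Control (triangles), filled where the gene was a DEG. Krt23 leads the first comparison at 2.17, and Meg3 is positive in the first comparison and negative in the second.

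The remaining lists held few or no DEGs in DR 30% vs WT-DR, where 4.22% of all genes were higher and 1.22% lower. None of 5 oncofetal RNA-binding and chromatin proteins, 8 genes of the IGF axis, 8 fetal isoforms of metabolic enzymes and 12 genes of the Notch and Hippo-YAP pathways was a DEG. Of 9 proliferation genes, 2 were higher, Cdk1, the mitotic kinase (1.21, SE 0.25, adjusted p = 0.00195), and Mcm5, a subunit of the replication helicase (0.71, SE 0.15, adjusted p = 0.00201). Restriction in wild types moved 4 of 8 genes of the IGF axis, with the binding proteins Igfbp1 and Igfbp2 higher and Igfals and Ghr lower (Ghr −0.59, adjusted p = 4.38e-06). Over all genes it gave 2.85% higher and 3.52% lower.

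Markers of other liver cells moved beside these genes, against 4.22% of all genes higher and 1.22% lower in DR 30% vs WT-DR. In DR 30% against WT-DR mice, 7 of 12 macrophage and Kupffer cell markers were higher, among them Lyz2 (0.67, adjusted p = 1.76e-05), Clec4f (0.89, adjusted p = 8.46e-05), Vsig4 (0.61, adjusted p = 0.00195) and Cd68 (1.17, adjusted p = 0.00348). The mean of the list ran from 7.47 to 8.01 in DR 30% and from 6.80 to 7.26 in WT-DR mice. Its count fell to 4 without DR 30% mouse 366 and to 4 without WT-DR mouse 425. Restriction in wild types gave 0 higher and 2 lower DEGs in this list, with a median log2 fold change of −0.35. In DR 30% against Control mice 1 was higher and 0 lower, with a median of −0.07. Of 4 neutrophil markers 2 were higher in DR 30% than in WT-DR mice (S100a8 1.27 and S100a9 1.14). The other neutrophil markers, Ngp and Camp, were dim and not higher. Their means were 3.35 and 3.54 in DR 30% against 3.60 and 3.65 in WT-DR mice. Of 11 stellate cell markers 1 was higher in DR 30% and of 12 hepatocyte markers 0.

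Of 8 bile duct markers, 1 was higher in DR 30% than in WT-DR mice, Tspan8 (1.52, adjusted p = 2.97e-05). The mean of that list ran from 3.83 to 4.18 in DR 30% and from 3.67 to 3.81 in WT-DR mice, without overlap. The list's median log2 fold change was only 0.02, against −0.00 over all genes, of which 4.22% were higher. The gap in the list mean thus lay in Tspan8 and Pkhd1 and was not general to the list. The brightest of the 8, Pkhd1, was at 5.87 ± 0.44 in DR 30% and 4.92 ± 0.26 in WT-DR mice (SD, n = 5 each; 0.95, SE 0.32, adjusted p = 0.0601). Pkhd1 was singled out after its values were seen. The defining duct markers Krt7 and Cftr were dim, at 3.44 ± 0.09 and 2.85 ± 0.15 in DR 30% and at 3.59 ± 0.12 and 2.85 ± 0.09 in WT-DR mice. No red cell, lymphocyte or sinusoidal endothelial marker was a DEG in this comparison. The part of these cells in the changes of Afp, H19 and Sox4 was not tested.

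Over the 24 mice, the genes whose values ran most like Afp among 10338 brighter genes were Ehd4 (Pearson r 0.966), Xaf1 (0.953), Micu2 (0.949), Sae1 (0.949) and Igsf23 (0.943). Mice of a genotype share the level of all of these, so r mostly describes the gap between genotypes. With each group's mean removed, r was 0.526 for Ehd4 and 0.497 for Xaf1, and −0.08 to 0.09 for the other 3. For H19 the closest were S100a9 (0.886, and 0.606 with group means removed), Afp (0.856 and 0.01), Gnat2 (0.849 and 0.611), Pomk (0.848 and 0.230) and Dusp12 (0.837 and 0.704). H19 and Afp thus ran together between groups and not among mice of a group. For Gpc3 the closest were Ptgr1 (0.756, and 0.547 with group means removed), Cinp (0.734 and 0.648), Det1 (0.726 and 0.369), Tfb1m (0.724 and 0.422) and Topbp1 (0.720 and 0.500).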

How the data were processed

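Total RNA of 24 mouse livers was measured by the authors on HT MG-430 PM plates of Affymetrix, and quality control and normalization used the arrayanalysis.org pipeline with RMA. The versions were not given in the sources used here. The deposited values are on the log2 scale, in 48 records that hold 2 tables of the same 24 mice, 1 of 45141 probe sets and 1 of 17306 probe sets defined per gene. Probe sets of exactly 1 gene numbered 28898 and took current RefSeq symbols (GRCm38.p6), 551 held several genes and 15692 were not named. The brightest probe set over all mice stood for its gene.

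R 4.3.3 with limma 3.58.1 fitted 1 model of the 5 group means over all probe sets, with Benjamini-Hochberg adjustment within a comparison. The depth of an array is its signal, and the number of mice limits the precision. The 10 genes, the lists and the repressors were chosen with earlier results of these data known. Genes named beyond the 10 are Ercc1, the 3 repressors, Alb and Ttr, and from each list at most the 4 DEGs of lowest adjusted p in a comparison. The 5 genes most like Afp, H19 and Gpc3, with a mean above the median, are also named. Some duct and neutrophil markers that were not DEGs are named beside those that were. Calling was tested on simulated data. Alternatives were the values per gene, the second probe set, a model of 2 groups, removal of dim probe sets, 2 scalings, a trended variance, other fold thresholds and leaving out each mouse.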

Additional observations from a re-analysis of the deposited data

Results flagged for a closer look

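In 2 of 45 combinations of gene and group, 1 mouse stood apart by Dixon's criterion, which chance alone reaches in about 5% of groups. Sox4 was at 4.80 in WT-DR mouse 422, with the other WT-DR mice at 5.49 to 5.73. Gpc3 was at 3.86 in WT-DR mouse 421, with the other WT-DR mice at 4.02 to 4.07.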

How the results depend on the processing

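Afp kept its direction and its call in DR 30% vs WT-DR under all 9 alternatives (log2 fold change 2.35 to 3.85) and with each mouse left out (3.62 to 3.95). Both scalings kept the calls of Afp, Sox4 and H19 in this comparison. The members called there fell to 1, Afp, with the values per gene, with a fold change of 2 and with the second probe set. The count also fell to 1 in Control vs WT-Control with the values per gene and the second probe set, and to 1 in Rapa 14 ppm vs WT-Control with these and a fold change of 2. On the second probe set Sox4 gave 0.10 in DR 30% vs WT-DR. With each mouse left out the count ran from 0 to 1 in DR 30% vs Control, with Afp called without DR 30% mouse 368, and from 0 to 1 in Rapa 14 ppm vs Control, with Sox9 called without Control mouse 327. A fold change of 2 also ended the call of H19 in DR 30% vs WT-DR. H19 in Rapa 14 ppm vs Control was called in 15 of 24 fits with a mouse left out (−0.80 to −0.58), and neither with 2 groups in the model nor with a fold change of 2. The cause of these changes was not tested, apart from the stricter threshold. In DR 30% vs WT-DR, the directions of Afp and H19 held under every alternative run. That of H19 also held in Rapa 14 ppm vs Control. For Sox4 in DR 30% vs WT-DR, the value per gene was 0.03 (95% interval −0.08 to 0.13), which shows no direction. Its probe sets other than the brightest gave −0.02 to 0.10. The comparisons that chose the genes are not counted here. Among members that were not DEGs, Dlk1 turned to −0.16 in DR 30% vs WT-DR with the values per gene and Epcam to −0.10 with the second probe set, and Igf2 and Krt19 turned to −0.00 and −0.02 with the values per gene. With dim probe sets left out, genes at or below the median had no value, H19 and Gpc3 among them. The list counts without single mice were added after seeing the data. No paired analysis was possible because the mice of different groups share no number. Most members lay at low signal, which limits what small changes could be seen.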
